A study of Drosophila melanogaster with 2 samples.

Results

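Binding of woc (without children), a zinc finger protein of chromatin, was examined at 10 genes of the Wingless pathway in whole Drosophila melanogaster larvae. The genes were chosen by their place in the pathway and not by their peaks: wg, fz, fz2, arr, dsh, sgg, Axn, Apc, arm and nkd, 10 of 13945 protein-coding genes on the chromosome arms. Earlier results of these data were known when the genes were chosen. For each gene, every peak was taken whose summit, the position of highest signal, lay in the gene body or within 5 kb of it. This gave 51 of the 6614 summits on the arms in the authors' optimal list, which holds the peaks of both libraries pooled that passed an irreproducible discovery rate (IDR) threshold.

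The larvae were of the wandering stage that ends the third instar, with males and females pooled. They came from 1 transgenic line that stably expresses woc with GFP fused to its C-terminus, and chromatin sheared by sonication was precipitated through the GFP tag. There was 1 group of 2 libraries, biological replicates 3 and 1, and no second genotype, stage or treatment. Each library's relaxed list holds 29999 peaks; read totals were not used, so depth is unknown. Peak calling by the authors used a control alignment, which was not analysed here. What drives the transgene is not given in the sources used here, and nothing separates the tissues, so strong binding in few cells and weak binding in many cannot be told apart.

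Wingless, encoded by wg, is the founding Wnt ligand of the fly and patterns the embryo and the imaginal discs, which still grow in larvae. It binds a Frizzled receptor (fz, fz2) and the co-receptor Arrow (arr), and the signal passes through Dishevelled (dsh). Without ligand, a complex of Axin (Axn), Apc and the kinase Shaggy (sgg, the fly GSK3) marks the beta-catenin Armadillo (arm) for destruction. With ligand, arm enters the nucleus and acts with the TCF protein encoded by pan. Naked cuticle (nkd) is induced by the pathway and restrains it by binding dsh.

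Of the 10 genes, 8 had an optimal summit in the body or within 5 kb, against 48.8% of all protein-coding genes (6805 of 13945). The exceptions were arm and Axn. The counts were 11 summits each at fz and fz2, 8 each at arr and nkd, 6 at sgg, 4 at Apc, 2 at wg and 1 at dsh. Longer genes have longer windows, and the median length of the 10 genes was 21 kb against 2.17 kb for all genes. All 5 genes of 25 kb or longer (fz, fz2, sgg, arr, nkd) had a summit, where 67.3% of the 810 such genes did, and 3 of the 5 shorter ones did, where 47.7% of 13135 did. The length of 25 kb was chosen after the values were seen. The windows together spanned 452 kb and held 1.13 summits per 10 kb, against 0.494 per 10 kb over the 134 Mb of the arms. Counted as regions of overlapping peaks, the windows held 40 and the arms 5607. The arms include sequence beyond 5 kb of any gene, and the part of this in the difference was not tested.

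Signal here means the number the authors' caller gave a peak, in units that are not stated, and it ranks peaks within a list. The sources state no scaling between lists, so ratios between the libraries describe these lists only. Optimal signal on the arms ran from 99.6 to 2866 with a median of 183. The 51 summits ran from 99.7 to 1184 with a median of 191, so their middle lay near that of the whole list. Of the 51, 4 were among the highest 10% of the list, and 27 in its upper and 24 in its lower part when it was divided at the median rank. The order of the genes by their strongest peak was sgg (1184), fz (850.0), fz2 (585), arr (561), dsh (389), nkd (292), wg (279) and Apc (122).

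**Figure D1:**
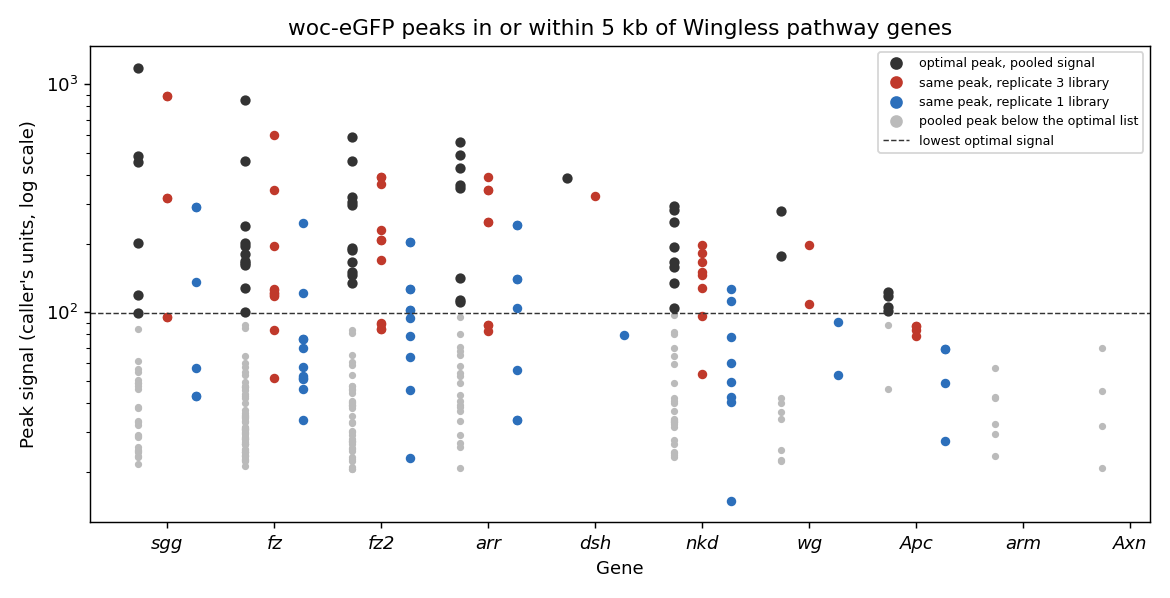
Signal of each peak in or within 5 kb of the 10 genes (log scale, genes from the strongest peak to the weakest). Black points are optimal peaks at their pooled signal, red and blue points the matching peaks of the replicate 3 and replicate 1 libraries, and grey points pooled peaks below the lowest optimal signal of 99.6. sgg stands highest at 1184, and arm and Axn have grey points only.

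In each library a gene was placed by its highest matching peak. At arr and nkd this was at a different optimal peak in each library. The place in the order was the same in both libraries for sgg (the first), fz (the second), wg (the sixth) and Apc (the last). By pooled signal wg was the seventh. fz2 and arr changed places: fz2 led by 394 to 393 in replicate 3, and arr led by 243 to 204 in replicate 1. nkd was the seventh in replicate 3, with the same rounded signal as wg (198), and the fifth in replicate 1, with 127 against 90.9 for wg. dsh was the fifth of 8 in replicate 3 (323) and the seventh in replicate 1 (80). Between fz and Apc the order of neighbours thus depended on the library.

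Sequences of 151 bases centred on a summit are shown for the strongest peaks of sgg, fz, fz2, dsh, nkd and wg, for the nkd promoter, and for 2 other windows with the core letters of TCF, the factor arm acts with. They were read from the RefSeq release 6 genome, which is dm6, on the plus strand; capitals mark matches to any of 7 motifs searched on both strands. The motifs were TATCGATA (DREF), CGATA (core of BEAF-32, contained in the DREF motif), GGTCACAC (core of M1BP), CTTTGAT (core of TCF), GAGAG (bound by the Trl protein), CAGCTG (an E-box) and TATAAA (the box of many core promoters).
sgg, X:2646308-2646458: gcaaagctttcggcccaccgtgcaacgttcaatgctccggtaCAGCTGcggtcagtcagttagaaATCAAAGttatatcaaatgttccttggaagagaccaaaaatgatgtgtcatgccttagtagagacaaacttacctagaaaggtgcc
sgg, X:2647848-2647998: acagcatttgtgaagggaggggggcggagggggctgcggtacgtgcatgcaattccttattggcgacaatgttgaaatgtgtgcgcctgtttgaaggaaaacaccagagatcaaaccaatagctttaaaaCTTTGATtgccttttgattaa
fz, 3L:14303993-14304143: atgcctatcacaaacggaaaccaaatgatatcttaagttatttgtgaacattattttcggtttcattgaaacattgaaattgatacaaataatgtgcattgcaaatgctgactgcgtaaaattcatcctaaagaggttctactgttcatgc
fz2, 3L:19172424-19172574: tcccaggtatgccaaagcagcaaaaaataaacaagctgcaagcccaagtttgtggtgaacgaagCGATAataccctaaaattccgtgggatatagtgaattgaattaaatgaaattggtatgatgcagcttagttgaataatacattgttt
fz2, 3L:19194172-19194322: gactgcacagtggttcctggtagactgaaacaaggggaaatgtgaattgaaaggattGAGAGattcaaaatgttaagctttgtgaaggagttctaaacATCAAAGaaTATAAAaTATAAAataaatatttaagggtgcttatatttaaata
dsh, X:11351448-11351598: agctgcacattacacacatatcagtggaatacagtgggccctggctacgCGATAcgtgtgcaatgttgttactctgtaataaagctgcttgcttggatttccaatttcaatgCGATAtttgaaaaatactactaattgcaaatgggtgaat
nkd promoter, 3L:19045524-19045674: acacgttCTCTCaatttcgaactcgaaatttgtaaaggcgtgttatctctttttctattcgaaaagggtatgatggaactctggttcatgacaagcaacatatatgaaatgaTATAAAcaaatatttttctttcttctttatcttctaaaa
nkd, 3L:19046635-19046785: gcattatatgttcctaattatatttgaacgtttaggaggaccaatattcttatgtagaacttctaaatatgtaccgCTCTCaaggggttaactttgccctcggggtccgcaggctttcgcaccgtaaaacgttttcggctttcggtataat
wg, 2L:7320102-7320252: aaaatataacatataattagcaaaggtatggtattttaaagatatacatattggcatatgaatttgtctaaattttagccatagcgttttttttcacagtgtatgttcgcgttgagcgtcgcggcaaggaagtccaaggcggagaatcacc

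Neither the DREF nor the M1BP letters occurred in any of the 51 windows, where 2.96% and 1.87% of all optimal windows held them. Among optimal summits away from promoters these shares were 0.433% and 0.542%, and 43 of the 51 lay there. CGATA was in 8 windows (15.7%, against 23.6% of all optimal windows and 16.1% of those away from promoters). It occurred 3 times, on either strand, in the window of the Apc promoter summit at 3R:28844803, and 2 times at dsh. The TCF letters were in 3 windows (5.88%, against 2.69% of optimal windows and 2.42% of windows of the same length ending at a start site). Away from promoters they were in 2 of the 43 windows, against 2.6% of such optimal windows. They lay at sgg in 2 windows and at fz2 in 1. GAGAG (10 windows, 19.6% against 18.9%), TATAAA (14, 27.5% against 25.2%) and CAGCTG (2, 3.92% against 6.37%) complete the search. The windows at fz and wg shown above held none of these letters. The median GC content was 35.1% in the 51 windows and 35.8% over all optimal summits.

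The ligand gene wg (FBgn0284084, 2L:7307159-7316265, plus strand, 1 start site) had no summit inside it. Its 2 optimal summits lay beyond its end, in the intergenic stretch before Wnt6. The summit at 2L:7320177 lay 3912 bp beyond the gene, with a pooled signal of 279, and had 198 in replicate 3 and 90.9 in replicate 1. The summit at 2L:7320527, 4262 bp beyond the gene, had 176, with 109 in replicate 3 and 53.1 in replicate 1. Another peak, at 2L:7321273 with a signal of 223, fell just outside the 5 kb limit, at 5008 bp. At the wg start site the pooled list held 1 peak, of 40.2, under the lowest optimal signal.

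The receptor gene fz (FBgn0001085, 3L:14274343-14368639, plus strand, 94.3 kb) carried 11 optimal summits, 9 of them in introns and none within 500 bp of its start site. The strongest, at 3L:14304068, lay in intron 1 of the 4 introns of fz-RA, 29725 bp from the start site. It was nearer to the start site of CG13482, at 25278 bp. It had a pooled signal of 850.0 and rank 136 of 6636, above 98% of the optimal list. It was high in each library: replicate 3 gave it 602 (rank 135), its summit 1 bp from the pooled one, and replicate 1 gave it 247 (rank 160), 17 bp away. The second, at 3L:14364897 in intron 4, had 460.4, with 344 in replicate 3 and 122 in replicate 1. It lay 90554 bp from the start site of fz and 4810 bp from that of CG13481.

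The other intronic summits of fz had pooled signals from 101 to 238. Of these, 1 lay in intron 1 and 6 in intron 4. The lowest, at 3L:14328683, was 663 bp from the start site of CG13482 and was nearly equal in the libraries, at 51.4 in replicate 3 and 51.7 in replicate 1. The summit of 238 at 3L:14339091 was unequal, with 196 in replicate 3 (rank 1836) and 33.6 in replicate 1 (rank 8051). Upstream of fz, summits of 202 and 161 lay 1782 and 1567 bp from the start site, within 1 region. Both overlapped the same library peaks (122 in replicate 3, 76.8 in replicate 1).

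The second Wingless receptor gene, fz2 (FBgn0016797, 3L:19140975-19235373, minus strand, 94.4 kb), also carried 11 optimal summits, all in introns. It has 3 annotated start sites, and none had an optimal summit within 500 bp; the pooled list held peaks of 40.2 and 32.8 at 2 of them. The strongest summit, at 3L:19172499 in intron 5 of the 6 in fz2-RD, lay 1851 bp upstream of the start site that fz2-RB and 4 other transcripts share. Its pooled signal was 585, with 394 in replicate 3 and 204 in replicate 1, and a second summit of 319 lay in the same region. These were followed by 461 at 3L:19160082 in intron 6 (366 in replicate 3, 94.6 in replicate 1) and 304 at 3L:19166546 in intron 5 (229 in replicate 3, 79.1 in replicate 1). A region of intron 4 at 3L:19194247, 23599 bp upstream of that start site, had 297, with 208 in replicate 3 and 127 in replicate 1. The fz2 summits thus lay in introns 4, 5 and 6, and none in the introns before them.

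At fz2 the libraries differed in which summits were high. At 3L:19173334, signal was 170.1 in replicate 3 (rank 2262) and 23 in replicate 1 (rank 12599). At 3L:19162979, it was 84.7 in replicate 3 (rank 5362) and 102 in replicate 1 (rank 1640), a ratio of 0.831 that the neighbouring summit shares through the same library peaks. The only other ratio under 1 among the 51 summits was 0.996, at fz. The pooled signals of these summits, 188 and 191, were nearly equal.

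**Figure D2:**
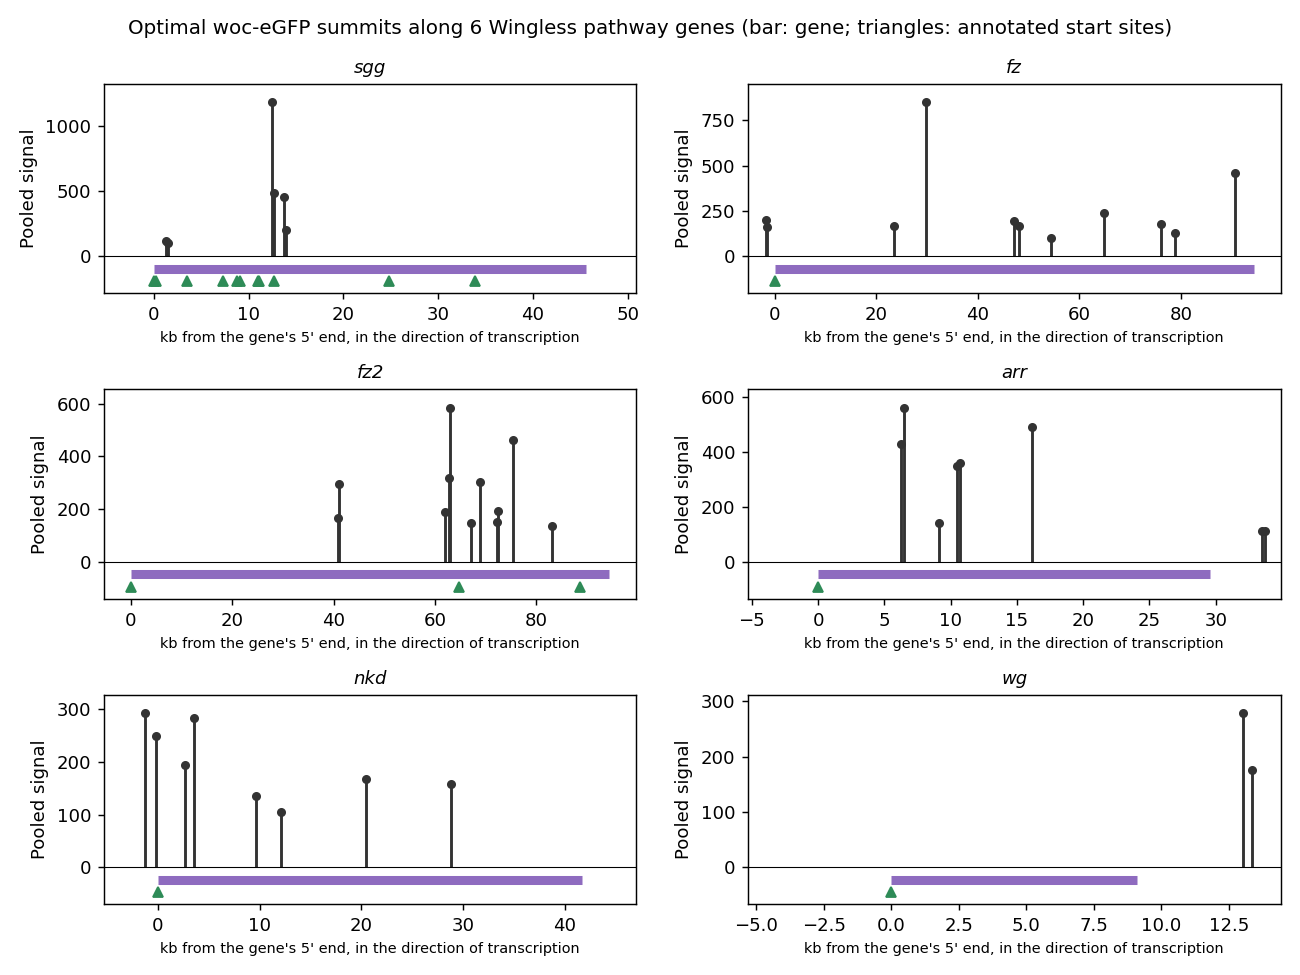
Pooled signal (vertical axis) of optimal summits by distance in kb from the 5' end of 6 of the genes, drawn in the direction of transcription. The purple bar is the gene and the triangles are annotated start sites. At sgg the summits of 1184 and 486 stand at 1 internal start site, at fz2 all stand in introns, at fz 9 of 11 stand in introns and 2 upstream, at arr 6 of 8 stand inside the gene and 2 beyond its end, at nkd they run across the start site, and at wg they stand beyond the end of the gene.

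Arrow, the co-receptor of the LRP family, is encoded by arr (FBgn0000119, 2R:13453640-13483229, minus strand, 29.6 kb). It had 8 optimal summits, 2.02 per 10 kb of its window, the highest density of summits of the 10 genes. They lay in only 5 regions of overlapping peaks, while nkd, at 1.55 summits per 10 kb, had 8 regions. Of the 8 summits of arr, 6 lay inside the gene, all in intron 2 of the 6 introns of arr-RA. The nearest was 6282 bp from the arr start site. The region at 2R:13476746 had summits of 561 and 430.0, which lay 596 and 395 bp from the start site of CG43192. The region had 345 in replicate 3 (rank 644) and 243 in replicate 1 (rank 177). The summit at 2R:13467060 had 492, with 393 in replicate 3 and 104 in replicate 1. Those at 2R:13472514 and 2R:13472741 had 361 and 349.9, in 1 library peak of 249 in replicate 3 and 141 in replicate 1. A weaker one of 142 lay at 2R:13474071. The other 2, of 113 and 111, lay beyond the end of arr at the promoter of cnn, a centrosome gene, 140 and 363 bp from its start site.

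Dishevelled, which relays the signal from the receptors, is encoded by dsh (FBgn0000499, X:11355881-11358724, plus strand, 2.84 kb). Its 1 summit, at X:11351523, lay 4358 bp upstream in an intron of CG1737, 915 bp from the start site of that gene. The pooled signal was 389. It was 323 in replicate 3 (rank 736), and 80 in replicate 1 (rank 2487), where the overlapping peak had its summit 218 bp away. A second replicate 1 peak, of 56.6, stood 16 bp from the pooled summit. At the dsh start site the pooled and the replicate 3 lists held no peak within 500 bp, and the replicate 1 list held 1 of 36.7, 141 bp upstream.

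Of the destruction complex, the kinase gene sgg (FBgn0003371, X:2633952-2679553, plus strand, 45.6 kb) had the strongest peak of the 10 genes. It has 11 annotated start sites. The summit at X:2646383, with a pooled signal of 1184 and rank 50, lay 254 bp upstream of the start site of 1 transcript, sgg-RQ, and inside intron 2 of the 9 in the longer sgg-RA. It had 890.4 in replicate 3 (rank 36) and 290.5 in replicate 1 (rank 94), and a second summit of 486 in the same region lay 54 bp from that start site. The first of the start sites, X:2633952, begins 6 transcripts and had no pooled peak within 500 bp, and no other sgg start site had an optimal one. Downstream of the sgg-RQ start site, summits of 455 and 201 lay at 1068 and 1286 bp. The first of these had 317 in replicate 3 and 136 in replicate 1. Near the 5' end of the gene, a region at X:2635246 had summits of 119.7 and 99.7, the second just above the lowest optimal signal (95 in replicate 3 and 43.1 in replicate 1).

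Over all protein-coding genes, the sgg promoter was the 25th highest of 3058 with an optimal summit within 500 bp. Those nearest to it in promoter signal were CG1888 (1213) and ogre (1189) above, and Atat and Shc, which share 1 signal of 1165, below.

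The tumour suppressor gene Apc (FBgn0015589, 3R:28832301-28844748, minus strand, 12.4 kb) had 4 optimal summits of 102 to 122, all upstream of it. A region at the start site of Apc-RA and Apc-RC had summits of 102 and 118, which lay 55 and 311 bp upstream. The second was nearer to the start site of spg, at 211 bp, which lies on the other side. The matching library peaks had 87.4 in replicate 3, with its summit 33 bp upstream of Apc, and 68.8 in replicate 1, with its summit 309 bp upstream. Summits of 106 and 122 lay in introns of spg, 2568 and 3410 bp upstream of Apc. The first of them had 84 in replicate 3 (rank 5408) and 27.2 in replicate 1 (rank 10341).

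The scaffold gene Axn (FBgn0026597, 3R:30022842-30035311, plus strand, 12.5 kb) had no optimal summit. The pooled list held 4 peaks in its window, of 20.8 to 69.7, and the highest lay 865 bp from the start site of Mgat2, a neighbouring gene. In the libraries the highest peak in the window was 54.1 in replicate 3 (rank 8256) and 30.5 in replicate 1 (rank 9049). Neither of its 2 start sites had a pooled peak within 500 bp. The nearest optimal summit, of 569, lay 11096 bp from the gene, at CG7943.

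The effector gene arm (FBgn0000117, X:1891401-1900646, minus strand, 9.25 kb) likewise had no optimal summit, and its 4 start sites had pooled peaks of at most 57.3 within 500 bp. Each library placed arm differently. In replicate 3 the highest peak, of 75.9 (rank 5988), lay at X:1897580 in an intron, overlapped no pooled peak and was 1036 bp from the nearest pooled summit. In replicate 1 the highest, of 50.9 (rank 4783), lay 99 bp upstream of a start site, with another of 42.4 (rank 6046) at 186 bp downstream of one. At the promoters replicate 3 had 37.4 (rank 11446). The nearest optimal summit, of 394, stood 7230 bp upstream at the promoter of Edem1.

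The feedback inhibitor gene nkd (FBgn0002945, 3L:19003741-19045449, minus strand, 41.7 kb) had 8 optimal summits in 8 separate regions. They ran from 28831 bp inside the gene to 1261 bp upstream of its start site. The summit at the promoter, 3L:19045599, lay 150 bp upstream with a pooled signal of 249.6, and had 166 in replicate 3 and 78.1 in replicate 1. The upstream summit at 3L:19046710 was the highest, at 292, with 182 in replicate 3 and 127 in replicate 1. Of the 6 in intron 1, the highest was 282 at 3L:19041871, 3578 bp downstream of the start site (198 in replicate 3, 112 in replicate 1). The next was 194, at 2720 bp.

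The remaining 4 intronic summits of nkd had 104 to 167. That of 167 at 3L:19024997 was unequal, with 150.5 in replicate 3 (rank 2673) and 15 in replicate 1 (rank 20593). This 10.1-fold ratio was the highest of the 51 summits. The lowest optimal one, of 104 at 3L:19033355, had 53.5 in replicate 3 (rank 8329) and 49.3 in replicate 1 (rank 4989). A pooled peak of 97.3 in the same intron was just short of the lowest optimal signal.

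Promoters were a small part of this binding. Of the 10 genes, 3 (sgg, nkd, Apc) had an optimal summit within 500 bp of an annotated start site, against 21.9% of all protein-coding genes (3058 of 13945); with 10 genes the difference was not tested. Only 5 of the 51 summits were at a start site of the 10 genes, and 3 more were at those of cnn and CG43192. The nearest start site was that of the gene itself for 29 of the 51, and that of another gene for 22. Introns held 38 summits (74.5%), including that in CG1737 and those in spg, and 5 (9.8%) were intergenic. Over the whole optimal list, promoters held 44.2%, introns 35.8% and intergenic sequence 18.6%. Summits more than 5 kb from any start site made up 39.2% of the 51 (20) and 23.5% of the whole list (1552). The windows were drawn around gene bodies, while the whole list covers the arms; the part of this choice in the difference was not tested.

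**Figure D3:**
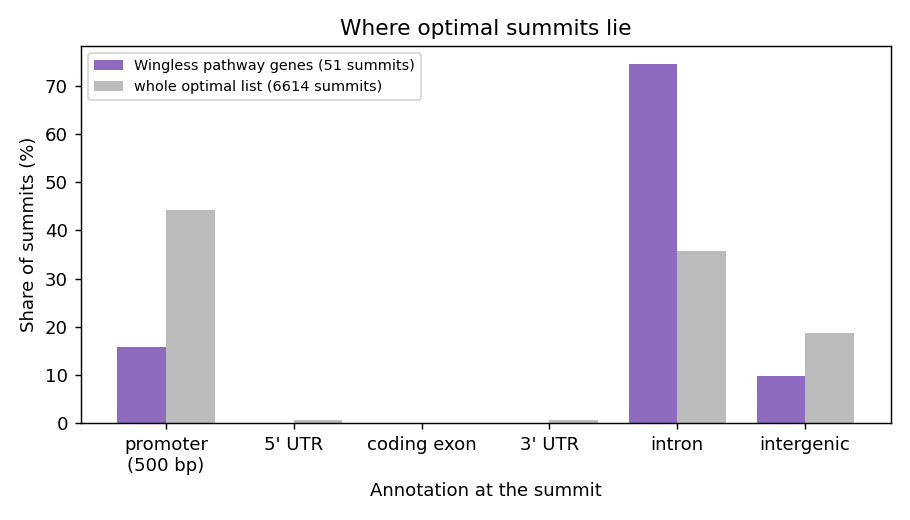
Share of optimal summits (%) by the annotation at the summit, for the 51 summits at Wingless pathway genes and for all 6614 on the arms. Introns hold 74.5% against 35.8%, and promoters 15.7% against 44.2%.

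Summits often came close together. The 51 lay in 40 regions of overlapping peaks, and 11 regions (27.5%) held more than 1 summit, 200 to 256 bp apart, against 17.6% of the 5607 regions on the arms. Such neighbours often overlapped 1 library peak: the 51 summits matched 40 peaks of replicate 3 and 41 of replicate 1, so they are not separate measurements. Of the 51, 23 (45.1%) had the commonest peak width of 510 bp, against 55.8% of the whole list, and their signals were all between 99.7 and 202.

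All 51 peaks overlapped a peak in both libraries, as did 6474 of the 6614 on the arms. The ratio of signal in replicate 3 to that in replicate 1 had a median of 2.12 (quartiles 1.59 and 2.72), against 2.07 (1.54 and 2.85) over those 6474. Away from promoters, where 43 of the 51 summits lay, the median over all 3643 such peaks found in both libraries was 2.45, higher than the 2.07. The 2.12 also covers the 8 summits at promoters, so it and the 2.45 are of unlike sets. The ratio was above 1 at 48 of the 51. At 43 summits (84.3%) the matching peaks were among the 6636 highest of both libraries, against 75.7% over the whole list. At 6 this held in replicate 3 only, and at 2, in fz and nkd, in replicate 1 only. Across 41 distinct pairs of library peaks Spearman's rho was 0.678. It was 0.703 over all 6474 optimal peaks, where neighbours that share library peaks were each counted, so the 2 values differ in their unit. Both describe points that share their 2 libraries.

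**Figure D4:**
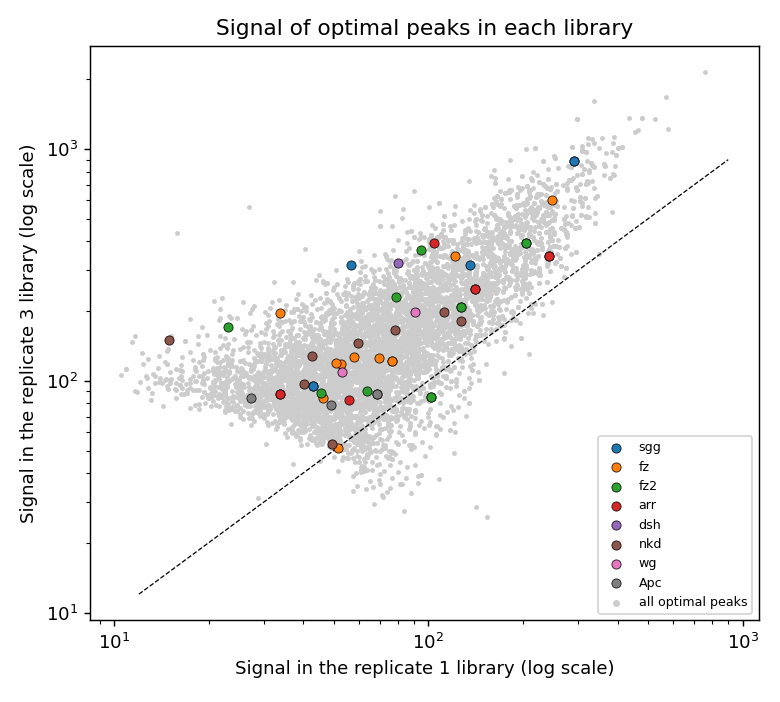
Signal of each optimal peak in the replicate 3 library (vertical, log scale) against that in the replicate 1 library (horizontal, log scale), with all optimal peaks in grey and those at 8 Wingless pathway genes in colour. The dashed line marks equal signal; 48 of the 51 coloured summits lie above it, and the summit of nkd at 150.5 and 15 lies farthest left of these.

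A list of 40 other genes of the pathway was placed in the same way. Of these, 15 (37.5%) had an optimal summit at a promoter, against 21.9% of all genes, and 32 (80%) had one in the body or within 5 kb, against 48.8% of all genes. The 40 genes were 0.917 to 63.7 kb long, and no comparison at matched length was made for them. Among the other ligand genes, 1 of 6 had a promoter summit, Wnt5 (114, with 31.2 in replicate 3 and 28.8 in replicate 1). Both library values were under the lowest of the 6636 highest peaks of that library, 68.5 in replicate 3 and 39.4 in replicate 1. Of the rest, Wnt10 had 161 near ninaC, Wnt2 had 152 and Wnt4 149, all in introns.

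Of 7 genes for secretion and extracellular movement of Wnt proteins, 2 had a promoter summit. Both encode glypicans that bind Wingless, dlp (422, with 283 in replicate 3 and 142 in replicate 1) and dally (289, with 180.3 in replicate 3 and 101 in replicate 1). Sulf1, a sulfatase acting on such chains, had 645 in its window, but at the promoter of SF2. Notum, an enzyme that inactivates Wnt proteins and is a feedback target like nkd, had 6 summits in its window and none at the promoter, the highest 274 in an intron. Of 5 other receptor genes, fz3 alone had a promoter summit (230.4), while otk (367) and drl (323) had intronic summits inside the gene. The summit in the window of fz4 (221) lay outside fz4, in an intron of another gene, 587 bp from the start site of CG4615.

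The cytoplasmic regulators had promoter summits in 7 of 10. The highest was gish, a casein kinase 1 gene, with 1334 (rank 37), 159 bp from the start site, above any peak of the 10 main genes. It had 1028 in replicate 3 and 309 in replicate 1. Tnks, whose product promotes turnover of Axin, had 297 and Apc2 had 283, in each case at a summit nearer to the start site of a neighbour (RASSF8 and mRpS24). The promoter summit of mts (146) lay 344 bp from the mts start site and 9 bp from that of Rack1. Those without a promoter summit were SkpA (583 at the promoter of Hmt4-20), slmb (189 at that of Bdbt) and Cul1 (111). The summit of 111 lay outside Cul1, 4012 bp from its start site, in an intron of another gene.

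Of 7 nuclear factors, 4 had promoter summits, led by the coactivator gene nej with 762, the corepressor gene gro with 588 and hyx with 299.9. nej had 459 in replicate 3 and 302 in replicate 1, gro had 444 in replicate 3 and 136 in replicate 1, and hyx had 183 in replicate 3 and 122 in replicate 1. The TCF gene pan had 471 in its window, but at the promoter of RpS3A, and CtBP had 422 in an intron, 815 bp from its start site. None of 5 known targets, Dll, vg, sens, ac and en, had a promoter summit. Dll had 182 in an intron and vg had 440.3 in its window, at the promoter of Nmda1. These classes hold 5 to 10 genes each, and their counts were not tested.

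**Figure D5:**
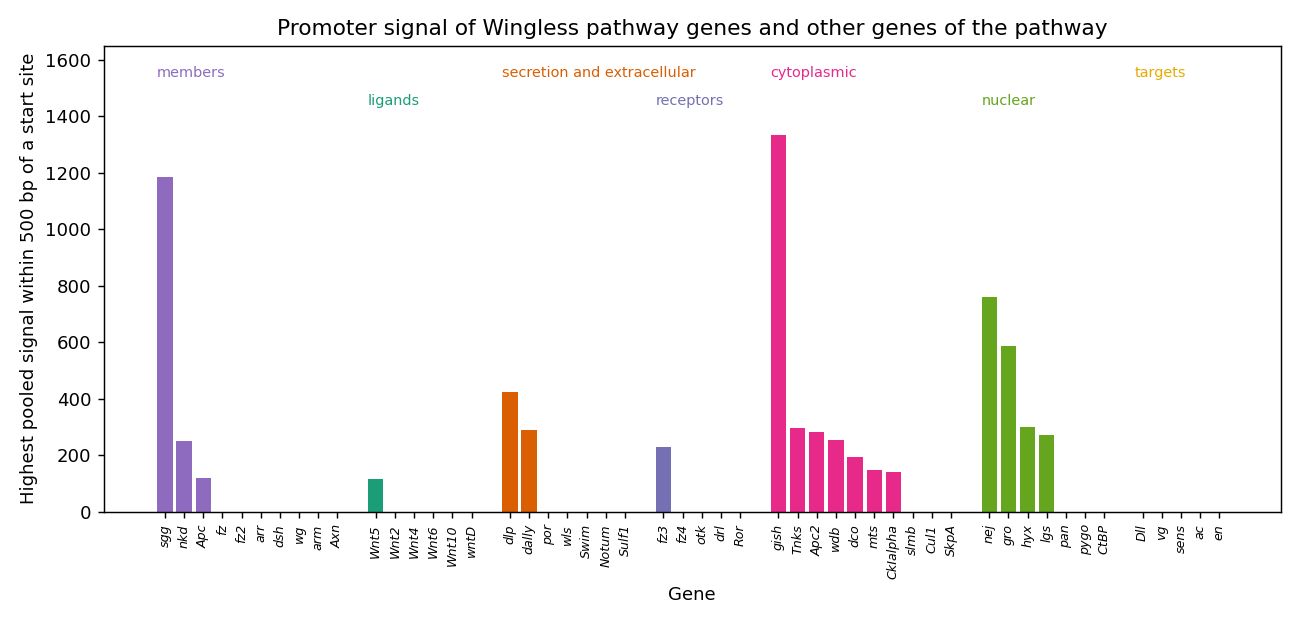
Highest pooled signal within 500 bp of a start site (vertical axis) for the 10 Wingless pathway genes (left, headed members) and the 40 other genes by class; a gene with no bar has no optimal summit there. sgg reaches 1184 and gish 1334, and nej, at 762, is next.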

How the data were processed

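The members and lists were chosen with earlier results of these data known. The authors deposited narrowPeak lists, named by them as a relaxed list per library, 1 for pooled alignments, and an optimal list after an IDR threshold, all on dm6. The signal of each peak is the deposited value of the authors' caller, and the −log10 q in the deposited lists reached a ceiling of 3.94, so it was not used for ranking. Aligner, caller and IDR threshold were not given in the sources used here. Read totals were not used, so depth is unknown and no counting interval was given. Lists on dm3 were not used.

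Summits were placed on Ensembl release 115 (BDGP 6.54) with Python 3.11.15 and pandas 2.3.3, with coordinates counted from 1. A promoter summit lay within 500 bp of a start site of any protein-coding transcript. The value in a library is that of its highest peak sharing at least 1 bp with the optimal peak. The placing was tested on simulated peaks. Of the 40 other genes, 1 (wntD) was matched through a synonym. No test between samples was possible with 1 group, so counts stand beside those of all genes. Named were the 10 genes with all optimal peaks, the neighbours nearest a summit, up to 3 genes with the highest promoter or window signal per class, and those next to sgg; further genes of a class were named after their values were seen. No samples were left out. Alternatives changed the windows, the start sites, the peak list, the matching and the libraries.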

Additional observations from a re-analysis of the deposited data

How the results depend on the processing

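The count of genes with an optimal summit in their window (8 of 10) was 6 with 2 kb added to the gene body in place of 5 kb, 9 with 10 kb, 7 with only the 3318 highest optimal peaks, and 8 with peak intervals in place of summits. When the 6636 highest peaks of replicate 3 alone or of replicate 1 alone replaced the optimal list, it was 9 in each, arm being added. The sum of 51 summits was 27 with the 3318 highest optimal peaks, by construction of the shorter list, and 44 to 59 under the other settings, 54 with either library alone. The 3 genes with a promoter summit became 7 with the relaxed pooled list, which also raised the share of all genes to 38.5%. Otherwise they numbered 2 to 4. Among them, arm joined in replicate 1 alone. Apc dropped out with the 3318 highest optimal peaks, and sgg with only the 5'-most start site. The share of all genes was 18.1% within 250 bp, 25% within 1000 bp, 21.8% in replicate 3 alone and 23.6% in replicate 1 alone. Of the other 40 genes, 15 became 26 with the relaxed list and 12 to 18 otherwise, 17 with either library alone. The median ratio of replicate 3 to replicate 1 signal, 2.12, was 2.12 for library summits within 100 bp (43 matched) and 2.18 with each pair of library peaks counted once, a setting chosen after seeing the data. Depth is unknown, so for genes without an optimal summit absence of binding and too little signal cannot be told apart.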

Other observations

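The genes Wnt4, wg, Wnt6 and Wnt10 lie next to one another on 2L, and the stretch from 5 kb before Wnt4 to 5 kb beyond Wnt10 (2L:7250419-7382528) held 9 optimal summits in 9 regions, 0.681 per 10 kb against 0.494 over the arms. The highest, 499.8 at 2L:7358203, lay in intergenic sequence 5176 bp from the Wnt10 start site and had 400.1 in replicate 3 and 104 in replicate 1. A group of 4 summits stood between wg and Wnt6, from 2L:7320177 to 2L:7323217, with pooled signals of 279, 176, 223 and 127. Inside the genes there was 1 summit each in Wnt4 (149), Wnt6 (123, 521 bp from its start site in the annotated 5' untranslated region) and Wnt10 (161), and none in wg. That of Wnt4 had 123 in replicate 3 and 22.9 in replicate 1. This stretch was looked at after the values at wg were seen.

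Between 5 and 10 kb of the 10 genes lay 8 more optimal summits. The highest was 394, at Edem1 upstream of arm, followed by 391 at 3L:18996441, 7300 bp beyond the end of nkd in an intron 632 bp from the start site of CG18135. Axn had none within 10 kb.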
